A study of Mus musculus with 27 samples.

Results

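The genes examined were the 4 subunit genes of calcium/calmodulin-dependent kinase II (*Camk2a*, *Camk2b*, *Camk2d*, *Camk2g*), 2 further calcium/calmodulin-dependent kinase genes (*Camk1*, *Camk4*) and the 3 doublecortin-like kinase genes (*Dclk1*, *Dclk2*, *Dclk3*). They were selected on the calls of these data: regions of *Camk2a* and *Dclk1* were known to be in the lists of decreased histone methylation, and their paralogues were added to set beside them. For each gene, every region of the merged H3K4me1, H3K4me2 and H3K4me3 list was taken that touched the gene body or the 5 kb around an annotated transcription start site (TSS). This gave 278 of the 358833 merged regions, and no region was counted for more than 1 gene. All 9 genes had at least 1 region, as did 20025 of the 22380 annotated protein-coding genes.

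The lists came from hearts of C57BL/6 mouse embryos at stage E11.5 (embryonic day). Control hearts were *Tnnt2::Cre; Kmt2d fl/+; mTmG/+* and mutant hearts *Tnnt2::Cre; Kmt2d fl/fl; mTmG/+*, so both genotypes carried the Cre transgene, the mTmG reporter and at least 1 floxed copy of *Kmt2d*, which encodes an H3K4 methyltransferase. The *Tnnt2* promoter drives Cre in heart muscle, whereas whole hearts also hold endocardial, epicardial and blood cells that keep *Kmt2d*. For each genotype 3 pools of 30 hearts were divided into an input and 3 immunoprecipitations, giving 3 libraries in each group. A region in a decreased list is one that the authors called lower in mutant than in control hearts. The lists hold positions only, so no read number, size of loss, replicate spread or *P* value was available for any region, and the deletion of *Kmt2d* itself could not be checked in them. Everything below is a description of those calls, and absence from a list does not show that methylation was unaltered.

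As a check of the tissue, a merged region lay over a TSS in 6 of 6 heart muscle markers, 4 of 4 endocardial markers, 4 of 4 epicardial markers and 2 of 4 blood markers. It also did so in 5 of 6 markers of neurons and neural crest, and in 1 of 4 markers of tissues that were not dissected (*Ins2*, 160 bp). In all, 22 of 28 markers had a region over a TSS, as did 70.4% of annotated protein-coding genes. A region over a TSS was therefore not particular to heart genes in this list, and cannot be read as expression.

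Calcium entering a heart muscle cell at each beat binds calmodulin, and calcium-loaded calmodulin switches on the CaM kinases. CaMKII is an assembly of many subunits, each with an amino-terminal kinase domain, a regulatory segment that blocks the kinase until calmodulin binds, and a carboxy-terminal association domain. *Camk2d* encodes the main subunit of heart muscle and *Camk2g* is also made there, whereas *Camk2a* and *Camk2b* are best known from neurons. CaMKI and CaMKIV act as single subunits that are switched on by upstream CaM kinase kinases. The doublecortin-like kinases join microtubule-binding doublecortin domains to a kinase domain related to those of the CaM kinases, and are best known from developing neurons.

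Decreased regions fell in *Camk2a*, *Camk2b*, *Camk2d*, *Camk2g* and *Dclk1*. *Camk1*, *Camk4*, *Dclk2* and *Dclk3* held none. Of the 278 regions, 7 were in the decreased H3K4me1 list, against 0.761% of all merged regions, and 8 were in the decreased H3K4me2 list, against 1.87%. A single region was in both. It was under 200 bp wide, and 0.0604% of all merged regions under that width were in both. By gene, *Camk2a*, *Camk2b*, *Camk2d* and *Dclk1* held a decreased H3K4me1 region, which 7.08% of protein-coding genes with a region did. *Camk2a*, *Camk2d*, *Camk2g* and *Dclk1* held a decreased H3K4me2 region, which 28.7% of such genes did. *Camk2a*, *Camk2d* and *Dclk1* held at least 1 of each, against 2.86% of genes. The H3K4me1 call of *Dclk1* rests on a single region of 140 bp, and *Dclk1* had 0 such regions when those under 200 bp were left out. Nothing is read from these shares, because *Camk2a* and *Dclk1* were chosen by these calls and the other genes were added with earlier results known.

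**Figure D1:**
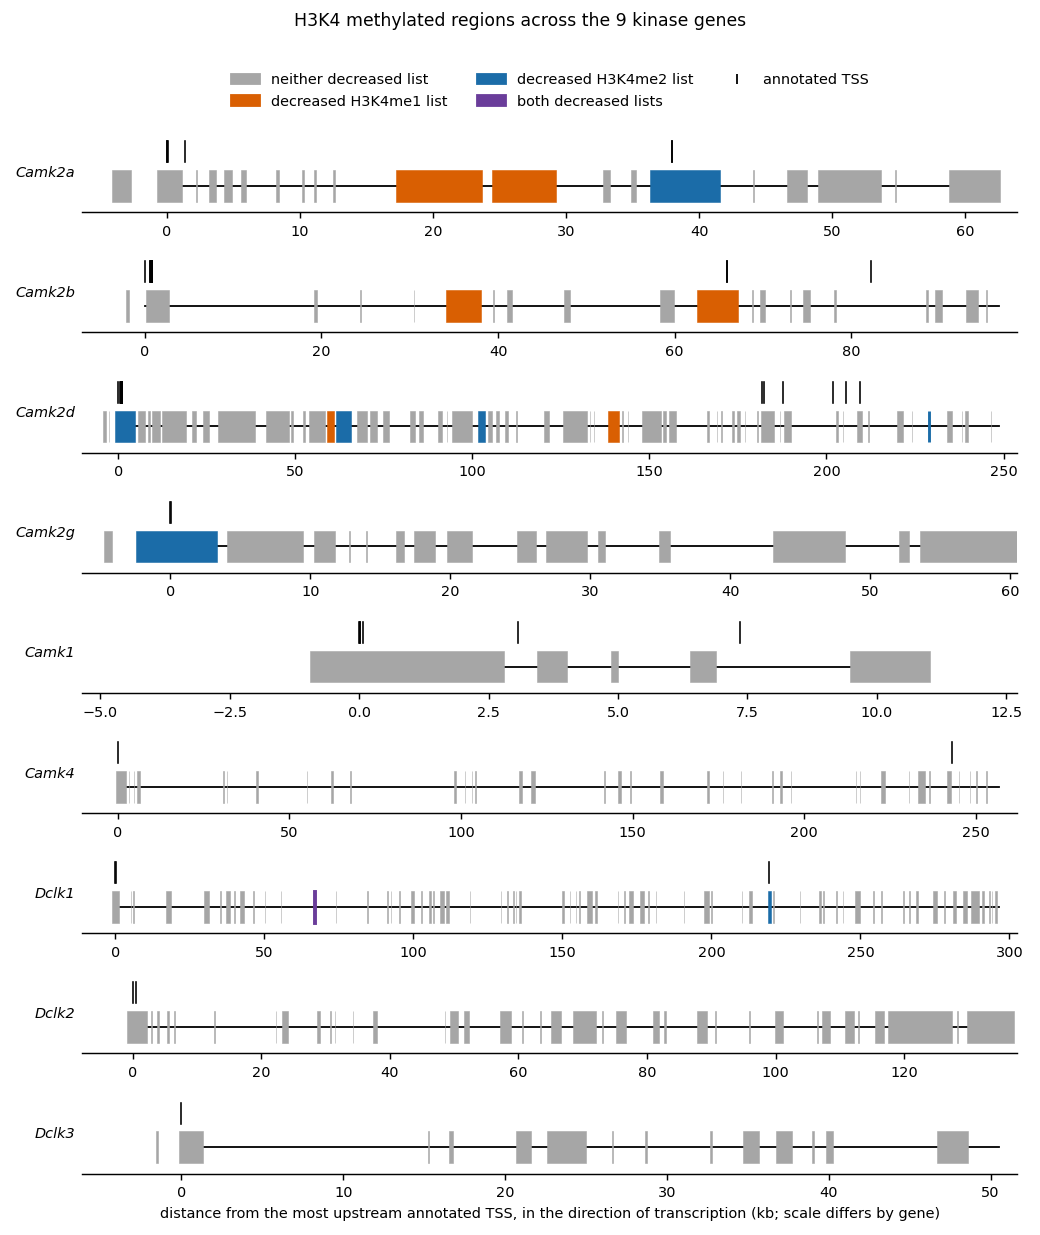
Regions of the merged list along each gene, in kb from its most upstream annotated TSS in the direction of transcription; box width is region width, box colour is list membership (the 2 decreased regions under 200 bp have a thickened outline), ticks are annotated TSS and regions that run past the window are cut at its edge. Decreased regions cover internal TSS in *Camk2a*, *Camk2b* and *Dclk1* and the first TSS in *Camk2d* and *Camk2g*.

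The 9 genes differed widely in how much methylated chromatin they held. *Dclk1* had 69 regions, *Camk2d* 60, *Camk4* 37, *Dclk2* 37, *Camk2a* 20, *Camk2b* 20, *Camk2g* 16, *Dclk3* 14 and *Camk1* 5, where the median over protein-coding genes with a region was 5. The longest genes tended to hold more regions, but *Camk4* (257 kb) had no more than *Dclk2* (135 kb). The share of each span (gene body plus the TSS windows) inside regions gave another order. It was 53.5% in *Camk2g*, 49.1% in *Camk2a*, 41.2% in *Camk2d*, 37.4% in *Camk1*, 29.3% in *Dclk2*, 18.9% in *Camk2b*, 18.2% in *Dclk3*, 13.5% in *Dclk1* and 6.89% in *Camk4*, beside a median of 21.9% over protein-coding genes. *Dclk1* thus had more regions than 98.1% of protein-coding genes but a smaller covered share than most of them. *Camk4*, of similar length to *Camk2d* (257 against 249 kb), had 18040 bp of its span covered, where *Camk2d* had 104620 bp.

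Over all protein-coding genes, the share with a decreased region was higher where genes held more regions. It went from 5.84% of genes with 5 to 9 regions to 36.6% of those with 40 or more for H3K4me1, and from 31.2% to 53.1% for H3K4me2. *Camk2d* and *Dclk1* belonged to the last class, in which 21.7% of 971 genes held at least 1 region of each list. *Camk2a* belonged to the class of 20 to 39 regions, in which 8.61% did. *Camk4* and *Dclk2* were in that class too, with no decreased region.

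**Figure D2:**
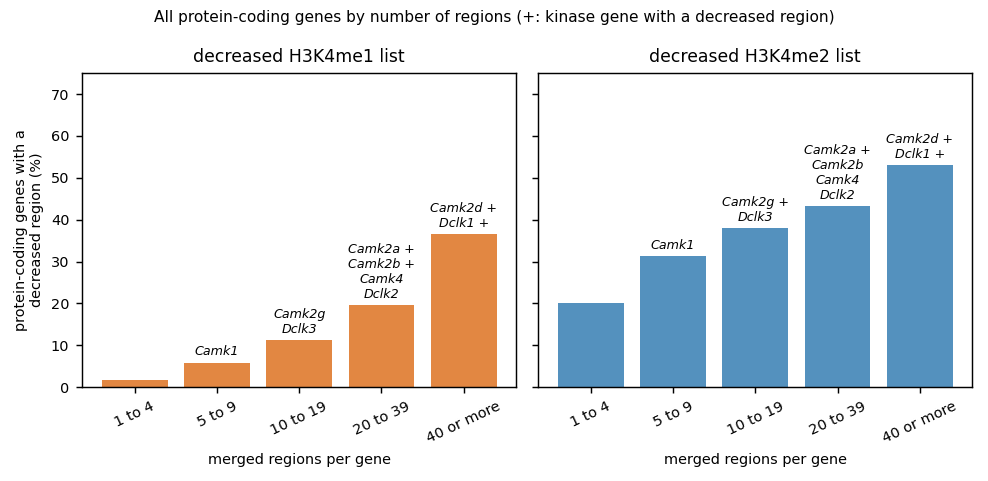
Share of protein-coding genes (%) with at least 1 region in the decreased H3K4me1 list (left) or H3K4me2 list (right), by merged regions per gene, with the kinase genes of each class named above its bar and marked + where they hold such a region. From 5 to 9 up to 40 or more regions the bars go from 5.84% to 36.6% and from 31.2% to 53.1%, and kinase genes with and without a decreased region share the class of 20 to 39 regions.

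*Camk2a* (ENSMUSG00000024617.10; chromosome 18, 61085272 to 61147806 in mm9, forward strand) encodes the alpha subunit. It held 2 decreased H3K4me1 regions and 1 decreased H3K4me2 region, and these were the 3 widest of its 20. The H3K4me1 pair lay next to each other in the gene body, with a gap of 720 bp: 61102446 to 61108945 (6500 bp, centred 20.4 kb from the first TSS, over an exon annotated in part as untranslated) and 61109666 to 61114485 (4820 bp, over a coding exon). The H3K4me2 region, 61121606 to 61126865 (5260 bp), held a pair of internal TSS, the first of them 37.9 kb inside the gene. The decreased H3K4me1 regions made up 34.0% of the base pairs in *Camk2a* regions and the decreased H3K4me2 region 15.8%. Over the whole merged list these shares of base pairs were 2.49% and 9.09%, and over the 9 genes together 8.03% and 7.64%, so that by base pairs the H3K4me2 share of the 9 genes lay under that of all regions, and by number of regions above it (2.88% against 1.87%). The next widest region (4760 bp, over coding exons towards the 3′ end) was in neither list.

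The first TSS of *Camk2a* lay in a region of 1860 bp that was in neither list. Coding transcripts that start there have up to 489 codons, the full subunit, whereas the 2 that start inside the decreased H3K4me2 region have 189 and 200 codons. As background, muscle makes a short *Camk2a* product, αKAP, from a promoter within the gene; it keeps the association domain, lacks the kinase domain and anchors CaMKII at the sarcoplasmic reticulum. The annotation gives no protein name to the internal transcripts. Around the internal TSS (250 bases before to 50 after) the CpG content was 0.0808 of that expected from base composition. It was 0.42 around the first TSS, and the median over the 43234 coding promoters was 0.577. The internal window also held a MEF2 site, the recognition sequence of MEF2 transcription factors, which 2.59% of promoters held.

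*Camk2b* (ENSMUSG00000057897.7; chromosome 11, 5869647 to 5966365, reverse strand), the beta subunit gene, had 2 decreased H3K4me1 regions and none of H3K4me2. They were its 2 widest. The wider, chr11:5899186-5903845 (4660 bp), held a pair of internal TSS, of which the coding one lay 65.3 kb from the first coding TSS. The other, chr11:5928326-5932305 (3980 bp), lay over a coding exon. Together they made up 44.9% of the base pairs in *Camk2b* regions. The first promoter lay in a region of 2600 bp in neither list. Coding transcripts from the first promoter have 479 to 666 codons and the internal one has 374.

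The *Camk2b* promoters are shown because they differ in base composition and only the internal one was called. The 250 bases that end just before the first coding TSS (chr11:5965752-5966001, mm9, reverse strand) held 44 CpG dinucleotides, in capitals, at 78.4% GC:
Camk2b first promoter: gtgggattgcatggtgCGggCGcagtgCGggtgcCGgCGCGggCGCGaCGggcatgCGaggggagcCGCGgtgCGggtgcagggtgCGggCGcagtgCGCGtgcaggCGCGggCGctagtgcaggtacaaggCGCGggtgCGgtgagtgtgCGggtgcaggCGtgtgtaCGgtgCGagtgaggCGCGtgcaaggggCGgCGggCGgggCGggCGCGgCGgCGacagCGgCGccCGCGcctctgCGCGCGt
The same stretch before the internal TSS (chr11:5900453-5900702, reverse strand) held 2 CpG dinucleotides at 58.0% GC, and its MEF2 match, which begins 197 bases before the TSS, is in capitals:
Camk2b internal promoter: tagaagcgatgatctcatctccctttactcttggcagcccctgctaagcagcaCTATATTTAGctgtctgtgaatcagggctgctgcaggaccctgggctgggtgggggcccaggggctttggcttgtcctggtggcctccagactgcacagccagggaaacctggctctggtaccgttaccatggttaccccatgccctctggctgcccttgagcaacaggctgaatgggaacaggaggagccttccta

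The internal promoters of *Camk2a* and *Camk2b* resembled each other in sequence, which the lists did not define. CpG content was 0.0808 and 0.0785 of that expected, and both held a MEF2 site, which none of the other 12 TSS windows of these genes did. Low CpG was not particular to the pair. An internal *Camk2d* window, in a region in neither list and without a coding transcript, had 0.0884. The *Camk2a* and *Camk2b* promoters differed in the call, which was H3K4me2 for *Camk2a* and H3K4me1 for *Camk2b*. The resemblance was noticed after the values were seen, and a motif match is not a site shown to be bound.

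*Camk2d* (ENSMUSG00000053819.9; chromosome 3, 126299220 to 126547972, forward strand), the main heart subunit gene, held 6 decreased regions, 2 of H3K4me1 and 4 of H3K4me2. Here the first promoter was called: the region chr3:126298286-126303965 (5680 bp) held 13 of the 19 annotated TSS and was in the decreased H3K4me2 list. The other 5 lay in introns. The H3K4me1 regions were chr3:126358266-126360205 (1940 bp) and chr3:126437406-126440665 (3260 bp). The intronic H3K4me2 regions were chr3:126360846-126364845 (4000 bp), chr3:126400806-126402925 (2120 bp) and chr3:126528186-126528245 (60 bp). The first of each mark were neighbours with 640 bp between them, 60.0 and 63.6 kb into the gene, so that adjacent regions were called for different marks.

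Of the 9 *Camk2d* regions of at least 4000 bp, 2 were in the decreased H3K4me2 list and 0 in the decreased H3K4me1 list, where 18.7% and 4.2% of all merged regions of that width were. Its widest, chr3:126327446-126337745 (10300 bp, intronic, 39.7% GC), was in neither. The regions over its internal TSS (3700 and 1380 bp), from which the annotation gives no complete coding transcript, were in neither list. The decreased regions made up 4.97% (H3K4me1) and 11.3% (H3K4me2) of the base pairs in *Camk2d* regions, a smaller part than in *Camk2a*. The 60 bp region is shown because it is as narrow as any of the 278 and, unlike the *Dclk1* region described further on, has no capitals, that is, no word of 32 bases found elsewhere on the assembled chromosomes:
Camk2d region of 60 bp: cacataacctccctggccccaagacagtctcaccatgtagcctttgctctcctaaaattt

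*Camk2g* (ENSMUSG00000021820.9; chromosome 14, 21554097 to 21613310, reverse strand) encodes the gamma subunit, and 1 of its 16 regions was called. It was the region of the first promoter, chr14:21610006-21615765 (5760 bp), in the decreased H3K4me2 list, and it held both annotated TSS. *Camk2g* had 4 regions of at least 4000 bp, and the other 3 were in neither list. The widest, chr14:21549206-21559765 (10560 bp), ran over the 3′ end of *Camk2g* and the TSS of the adjacent *Ndst2*, so it cannot be assigned to 1 gene. The called promoter is given as a contrast to the internal promoter of *Camk2b*, which was called for H3K4me1 and not for H3K4me2. The 250 bases before the *Camk2g* TSS (chr14:21613311-21613560, reverse strand) held 25 CpG dinucleotides, in capitals, at 80.0% GC:
Camk2g first promoter: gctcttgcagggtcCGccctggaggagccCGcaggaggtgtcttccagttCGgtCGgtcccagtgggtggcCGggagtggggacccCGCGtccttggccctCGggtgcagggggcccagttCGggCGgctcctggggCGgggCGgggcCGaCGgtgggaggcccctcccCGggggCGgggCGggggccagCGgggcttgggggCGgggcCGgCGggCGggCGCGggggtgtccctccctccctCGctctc

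Set side by side, the 4 *Camk2* genes each held at least 1 decreased region. Among their 116 regions 6 (5.17%) were in each decreased list, beside 0.761% (H3K4me1) and 1.87% (H3K4me2) of all merged regions. *Camk2a* was chosen for its calls, so nothing is read from these shares. No region was in both lists, but no width class of the merged list had more than 0.229% of its regions in both. *Camk2b* was alone among the 4 in having no decreased H3K4me2 region, and *Camk2g* in having no decreased H3K4me1 region. Such absence was the more common state. A decreased H3K4me2 region was held by 43.2% of genes with 20 to 39 regions, the class of *Camk2b*. A decreased H3K4me1 region was held by 11.3% of those with 10 to 19, the class of *Camk2g*. *Camk2a* differed from *Camk2d* and *Camk2g* in that its called TSS region was internal and low in CpG, whereas theirs held the first TSS, at 0.846 and 0.675 of the expected CpG. *Camk2a* without its paralogues accounted for 3 of the 12 calls in *Camk2* genes.

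*Camk1* (ENSMUSG00000030272.8; chromosome 6, 113284118 to 113293978, reverse strand) and *Camk4* (ENSMUSG00000038128.5) had no decreased region among their 42 regions. Over all merged regions 0.761% were in the decreased H3K4me1 list and 1.87% in the decreased H3K4me2 list. With so few regions, the absence of calls is not read as a difference from the other genes. *Camk1*, the smallest gene at 9.86 kb, had its first TSS in a region of 3740 bp, its widest. *Camk4* had its first TSS in a region of 2860 bp, also its widest, which held the TSS of *2310026I22Rik* as well, while its second annotated TSS lay 191 bp from the nearest region. *Camk4* had no region of at least 4000 bp, and 16 of its 37 regions were narrower than 200 bp.

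*Dclk1* (ENSMUSG00000027797.8; chromosome 3, 55046448 to 55342986, forward strand) held 1 region that was in both lists and 1 that was in the decreased H3K4me2 list. A region in both lists was held by 0.529% of protein-coding genes with a region, whose median was 5 regions against 69 in *Dclk1*. Nothing is read from that share, because *Dclk1* was chosen by its calls. In contrast to *Camk2a*, neither of the called *Dclk1* regions was wide. The region in both lists, chr3:55113166-55113305, spanned 140 bp of an intron 66.8 kb from the first TSS. The other, chr3:55265326-55266365, spanned 1040 bp over an internal TSS. The decreased regions made up 0.344% (H3K4me1) and 2.9% (H3K4me2) of the base pairs in *Dclk1* regions. The widest *Dclk1* region (2700 bp, intronic, towards the 3′ end) and the region of the first TSS (2180 bp) were in neither list.

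The internal TSS of *Dclk1* lay 219.2 kb from the first. Its transcript has 422 codons, whereas those from the first TSS have 363 to 756. As background, the *Dclk1* gene makes long proteins with doublecortin and kinase domains, and short ones that carry either alone. Unlike in *Camk2b*, the ratio of observed to expected CpG hardly differed, at 0.441 around the internal TSS and 0.471 around the first, and neither held a MEF2 site. GC did differ, at 60.4% in the 250 bases before the first TSS and 50.4% before the internal one. Only the first window held GGGCGG, the GC box. Both promoters are shown, with CpG in capitals, since only the internal one was called. The first is chr3:55046198-55046447 and the internal one chr3:55265430-55265679, forward strand, and they held 8 and 6 CpG dinucleotides:
Dclk1 first promoter: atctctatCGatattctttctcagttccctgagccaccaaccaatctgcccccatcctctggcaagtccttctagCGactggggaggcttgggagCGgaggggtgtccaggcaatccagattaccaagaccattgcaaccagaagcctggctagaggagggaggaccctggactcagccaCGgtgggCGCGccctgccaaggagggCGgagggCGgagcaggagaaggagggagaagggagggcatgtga
Dclk1 internal promoter: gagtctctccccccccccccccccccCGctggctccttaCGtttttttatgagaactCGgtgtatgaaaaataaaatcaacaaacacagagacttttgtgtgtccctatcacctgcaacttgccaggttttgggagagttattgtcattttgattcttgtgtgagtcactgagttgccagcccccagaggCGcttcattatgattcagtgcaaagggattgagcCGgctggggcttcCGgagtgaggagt

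The 140 bp *Dclk1* region is shown because it was the only one of the 278 in both lists and because part of it is repeated in the genome. Capitals mark the 56 bases, from position 85 to the end, that lie in words of 32 bases found more than once on either strand of the mm9 chromosomes. Of its 109 words 25 were repeated, the commonest 432 times:
Dclk1 region of 140 bp: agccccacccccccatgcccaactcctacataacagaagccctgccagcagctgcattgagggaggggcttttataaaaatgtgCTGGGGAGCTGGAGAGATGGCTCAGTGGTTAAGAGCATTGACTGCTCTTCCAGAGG
Among the 97 kinase gene regions under 200 bp, 93 held no repeated word. The share of reads that could be placed in this region, and its part in the calls, was not tested.

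*Dclk2* (ENSMUSG00000028078.8; chromosome 3, 86590073 to 86724803, reverse strand) and *Dclk3* (ENSMUSG00000032500.8; chromosome 9, 111341585 to 111392115, forward strand) had no decreased region among 51 regions. *Dclk2* had 37 regions, of which 2 spanned at least 4000 bp; the widest, chr3:86597426-86607285 (9860 bp), lay over coding exons near the 3′ end. Its first TSS lay in a region of 3060 bp. *Dclk3* had its TSS in a region of 1480 bp, and its widest region spanned 2400 bp of an intron. Over the 120 regions of the 3 *Dclk* genes, 0.833% were in the decreased H3K4me1 list and 1.67% in the decreased H3K4me2 list, beside 0.761% and 1.87% of all merged regions. All of these calls lay in *Dclk1*, which was chosen for them, and this is not read as a difference between the paralogues.

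**Figure D3:**
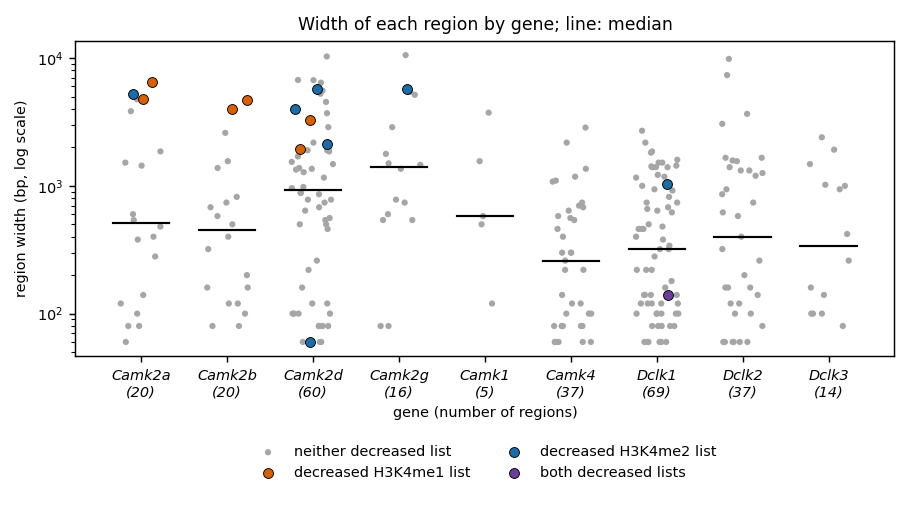
Width (bp, log scale) of each of the 278 regions by gene, with the number of regions under each name; lines are medians and outlined points are in a decreased list. The called *Camk2a* and *Camk2b* regions are the widest of their genes, whereas the *Dclk1* region in both lists spans 140 bp and the *Dclk1* median is 320 bp.

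Over all merged regions the calls went with width. Of regions of at least 4000 bp, 4.2% were in the decreased H3K4me1 list and 18.7% in the decreased H3K4me2 list, whereas under 200 bp the shares were 0.435% and 0.828%. The kinase genes had 20 regions of at least 4000 bp, with 3 in the H3K4me1 list and 4 in the H3K4me2 list. They had 73 of 1000 to under 4000 bp, with 3 and 2 called, beside 1.62% and 3.57% of all merged regions of that class. They had 88 of 200 to under 1000 bp with none called, beside 0.292% and 0.29%, and 97 under 200 bp with 1 and 2 called. Width and depth of reads cannot be told apart here, because the lists give no depth. In the widest class the 13 uncalled kinase gene regions had a median GC of 42.4%, and the called ones of 52.1% (H3K4me1, 3 regions) and 49.6% (H3K4me2, 4 regions). Over all merged regions of that class the same medians were 47.9%, 50.4% and 47.7%. The kinase gene medians mix genes of different base composition. The 3 H3K4me1 regions were of *Camk2a* and *Camk2b* (51.9% to 54.4%), and the uncalled 4760 bp *Camk2a* region had 51.8%. In *Camk2d* the uncalled regions of this class had 39.4% to 42.4%, and the called ones 47.5% and 44.0%. Call and gene cannot be told apart in these medians.

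In annotation, 14 of the 278 regions held a TSS of their gene, 222 were purely intronic, 36 touched an exon without a TSS and 6 lay upstream of the gene. Of the 14 with a TSS, 1 was in the decreased H3K4me1 list and 4 were in the decreased H3K4me2 list. Each was in a different one of the 9 genes, *Camk2b* for H3K4me1 and *Camk2a*, *Camk2d*, *Camk2g* and *Dclk1* for H3K4me2. The shares that follow are of genes, not of regions. A TSS region in those lists occurred in 1.29% and 29.2%, respectively, of the 15752 protein-coding genes with a TSS in a region. All 9 first coding TSS lay in a region, and 45 of the 54 annotated TSS positions did. Of all annotated protein-coding genes, 70.4% had a TSS in a region.

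*Camk2a*, *Camk2b* and *Dclk1* were 3 of 1323 protein-coding genes whose first coding TSS and an internal coding TSS lay in different regions. The first region was in the decreased H3K4me2 list in none of the 3 and in 26.8% of the 1323. An internal region was in that list in *Camk2a* and *Dclk1* and in 13.4% of the 1323, and an internal but not the first in the same 2 genes and in 9.07%. An internal region was in the decreased H3K4me1 list in *Camk2b* and in 3.48%. With only 3 genes, of which *Camk2a* and *Dclk1* were chosen by their calls, these shares only place the pattern among other genes.

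**Figure D4:**
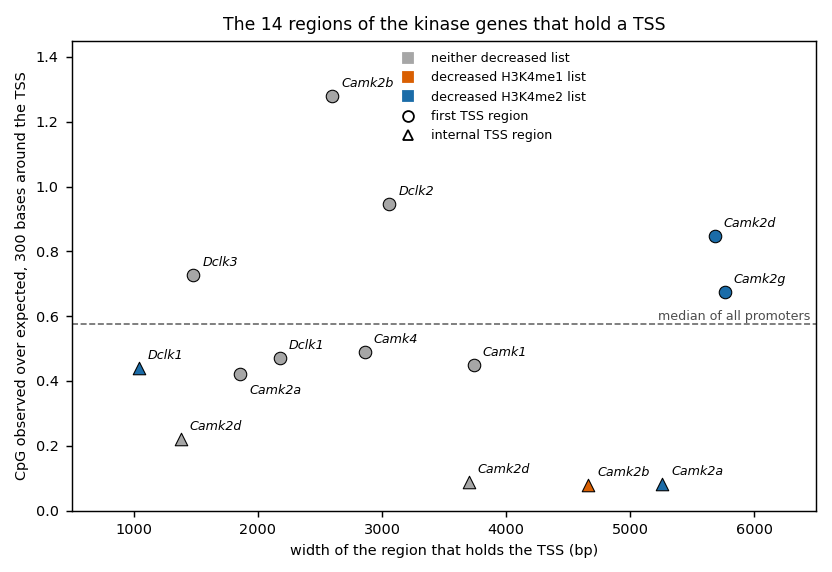
CpG content around the TSS (observed over expected, in the 300 bases from 250 before to 50 after) against the width (bp) of the region that holds it, for the 14 such regions; circles are regions of the first coding TSS, triangles internal ones, and the dashed line is the median of all promoters, 0.577. The called internal regions of *Camk2a* and *Camk2b* lie at the lower right, those of the first TSS of *Camk2d* and *Camk2g* at the upper right, and the called *Dclk1* region is the narrowest. An uncalled internal *Camk2d* region (3700 bp) lies as low as the called pair, at 0.0884.

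Motif matches were searched on both strands of the 14 TSS windows. GGGCGG, the GC box of SP factors, was in 6, the first promoters of *Camk2b*, *Camk2d*, *Camk2g*, *Dclk1*, *Dclk2* and *Dclk3*, and in 46.0% of all coding promoters. ACGTG, the core of the hypoxia response element, was in 1 of the 14 and in 21.2% of all, and TATAAA, the TATA box, in 1 and in 11.2%. Both of these matches were in the same internal *Camk2d* window, whose only transcript is annotated without a known start. All coding promoters here are those of complete coding transcripts, which the internal *Camk2d* windows lack, so the 14 windows are not wholly of the same kind. CACGTG, the E-box of MYC, which contains ACGTG, was in 0 and in 7.91% of all, CATTCC, the MCAT element of TEAD factors, in 0 and in 13.1%, and the CArG box of SRF in 0 and in 1.34%.

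No decreased region lay just outside the spans. The nearest merged region on each side of each gene, 18 in all, began 360 to 15294 bp beyond the span and none was in a decreased list. The nearest decreased H3K4me1 region outside the gene was 19.6 kb from *Camk2b* and 47.7 kb from *Camk2a*, 177 kb or more from *Dclk2*, *Camk2g*, *Dclk3*, *Camk4*, *Camk1* and *Dclk1*, and 3487 kb from *Camk2d*. The nearest decreased H3K4me2 region was 12002 bp from *Camk2b*, 12.5 kb from *Camk2a*, 24.1 kb from *Camk2g* and 32.6 kb from *Camk1*, and lay 60.6 to 380 kb from the other 5 genes. *Camk2b*, which held no decreased H3K4me2 region, thus had one outside it, at *Ykt6*.

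Of 35 further genes of the pathway, 8 held a decreased H3K4me1 region and 18 a decreased H3K4me2 region, and in 11 the latter held a TSS. Over all protein-coding genes with a region these calls were made in 7.08% and 28.7%, and in 29.2% of those with a TSS in a region for the last. The list was chosen with results of these data known, and nothing is read from its shares. The calmodulin genes *Calm2* and *Calm3* had a decreased H3K4me2 region over a TSS, of 10380 and 4160 bp. Among the upstream kinases *Camkk2* held 2 decreased H3K4me2 regions, the wider of 160 bp, and *Camkk1* none. The other CaM kinase genes *Camk1g* and *Pnck* and the pseudokinase gene *Camkv* had no call, and *Camk1d* had 2 decreased H3K4me1 regions of at most 100 bp among 86 regions. Of the CaMKII inhibitor genes, *Camk2n1* had none and *Camk2n2* a decreased H3K4me2 region of 60 bp.

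Among the CaMKII phosphatase genes 1 of 5 was called, *Ppm1e*, with an H3K4me1 region of 600 bp, and none had a decreased H3K4me2 region. In calcineurin, the phosphatase switched on by calmodulin, all 4 listed subunit genes had a decreased H3K4me2 region over a TSS, the widest of them of 7900 bp in *Ppp3ca*, 4120 bp in *Ppp3cb* and 3540 bp in *Ppp3r1*, a call made in 29.2% of protein-coding genes with a TSS in a region. Its inhibitor gene *Rcan1* held a decreased H3K4me1 region of 6220 bp instead.

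Heart muscle targets of CaMKII were called in 5 of 9 genes for H3K4me1 and 7 of 9 for H3K4me2, beside 7.08% and 28.7% of all protein-coding genes with a region. Several of them hold many regions (57 in *Hdac4*, 92 in *Cacnb2*, 123 in *Ryr2* and 143 in *Cacna1c*), and of all genes with 40 or more regions 36.6% and 53.1% were called. The widest of these regions was at *Hdac5* (27580 bp, H3K4me2, over TSS), a repressor that CaM kinases send out of the nucleus. *Pln*, the brake on the calcium pump of the sarcoplasmic reticulum, had its only region of 21180 bp in the decreased H3K4me2 list. Of all merged regions of at least 4000 bp, 18.7% were in that list. *Ryr2*, the calcium release channel, had 6 decreased H3K4me1 and 2 decreased H3K4me2 regions among 123, and its TSS region was in the H3K4me1 list. *Cacna1c*, the pore of the L-type calcium channel, had 19 decreased H3K4me1 regions and 1 of H3K4me2 among 143. Of the calmodulin buffers, *Nrgn* and *Pcp4* each had 1 decreased H3K4me2 region (1760 and 1220 bp). Of 4 doublecortin-domain relatives of *Dclk1*, *Dcdc2a* had a decreased H3K4me2 region of 700 bp and *Dcx*, *Dcdc2b* and *Rp1* had none.

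The genes most like *Camk2a* by number of regions, covered length and calls (Euclidean distance over log2(1 + regions), log2(1 + covered kb) and the 3 counts of decreased regions) were *Kremen1*, *Wasf2* and *Tet3*, at distances of 0.15, 0.22 and 0.36. Each had 2 decreased H3K4me1 regions and 1 of H3K4me2 among 18 to 23. The same 3 counts of decreased regions were found in 50 other protein-coding genes. Most like *Dclk1* were *Fam189a1*, *Pcsk5* and *Syne1*, at 0.17, 0.26 and 0.31, each with 75 to 82 regions and 1 in both lists, and 23 other genes had the same 3 counts. The counts of decreased regions are part of the distance, so the shared counts of these nearest genes follow from it and are not a result.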

How the data were processed

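Libraries were grouped by the genotype and antibody in the labels. Reads were aligned to mm9; per the labels' processing notes CASAVA 1.8.2, FastQC, Bowtie2, Bowtie and SAMtools were used. The authors called decreased regions at a false discovery rate threshold; the peak caller and the test are not given in the sources used here. The 3 deposited lists hold positions only (no counts, scores or other values), on a 20 bp grid, so depth per library is unknown and no test was run. Each decreased region has the exact coordinates of a merged one. Genes, TSS and exons came from GENCODE vM1 on NCBIM37 (mm9); chromosome 1 of that genome has 197195432 bp and the last region on it ends at 197159845. Coordinates are 1-based. *Hdac4* has more than 1 annotated entry and the longest was used.

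Overlaps of at least 1 bp, GC, CpG, repeated 32-base words and motifs were computed in Python 3.11.15 (numpy 2.4.6, pandas 2.3.3) with samtools 1.23.1, and overlap and word searches were tested on simulated data. The members, gene lists and comparisons were chosen with earlier results of these data known. Named genes are the 9 members, pathway genes with a decreased region (at most 4 per role, by width) beside those without, and the 3 genes nearest to *Camk2a* and to *Dclk1*; comparisons of first with internal TSS were added after the values were seen. 1 gene of the pathway list is not reported here. KMT2D ChIP-Exo (3 libraries) was not used here.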

Additional observations from a re-analysis of the deposited data

How the results depend on the processing

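Counts were repeated with a TSS window of 1 or 10 kb, the gene body alone, coding transcripts alone, the midpoint or the whole region inside, a match of 1 bp with a decreased region, and regions of at least 200 or 500 bp. The number of regions (278) fell to 181 at 200 bp and 144 at 500 bp. At either minimum width *Dclk1* had 0 decreased H3K4me1 regions and 1 of H3K4me2, since the region in both lists spans 140 bp. Of 234 alternatives of the 9 genes' own counts 219 stayed within 1.5 times the value given, and the 15 others were all under a minimum width. By base pairs rather than regions, 2.49% of the merged list was in the decreased H3K4me1 list and 9.09% in the decreased H3K4me2 list. Over all annotated genes, 5.51% had a decreased H3K4me1 region and 22.8% one of H3K4me2. No paired analysis was possible because the lists carry no replicate values, and leaving out a replicate could not be run for the same reason. The number of reads behind each region is unknown.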
